A study of Mus musculus with 8 samples.

Results

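The genes that write, copy and remove DNA methylation were followed through 8 Myc-CaP tumors. The set holds 10 of the 38115 genes in the count files, taken by gene symbol: Dnmt1, Dnmt3a, Dnmt3b, Dnmt3l, Uhrf1, Uhrf2, Tet1, Tet2, Tet3 and Tdg. All 10 were found in every tumor's file. Myc-CaP is a mouse prostate cancer cell line from a mouse in which a probasin promoter drives a Myc transgene in prostate epithelium. The androgen sensitive (AS) or castrate resistant (CR) line was injected into the anterior prostate of FVB males, and the hosts were either intact or castrated by surgery beforehand. RNA was sequenced from 4 primary tumors and 4 metastases, with 2 AS and 2 CR tumors in each group. They are called AS1, AS2, CR1 and CR2 within each group, names that carry no pairing. The labels call all 4 metastases matched but do not say which primary tumor each of them matches, so the comparisons treat the tumors as unpaired. The study's text counts fewer primary tumors than are labelled and does not name the ones it used, and every labelled tumor was used here. The site of each metastasis, the age of the hosts and the number of mice are not given in the sources used here. All tumors come from the same parental line, so the p-values measure the spread between these 8 samples and may not speak for other tumors. Which host went with which line is not stated tumor by tumor, so line and host cannot be told apart.

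Methyl groups on the cytosines of CpG pairs are put on by DNA methyltransferases. After each round of replication Uhrf1 binds hemimethylated CpG sites and brings in Dnmt1, which copies the mark to the new strand, while Dnmt3a and Dnmt3b methylate sites that carried no mark, helped in germ cells by the inactive cofactor Dnmt3l. The Tet dioxygenases oxidize 5-methylcytosine, and thymine DNA glycosylase (Tdg) cuts out the more oxidized forms so that base excision repair can put cytosine back. In prostate cancer the system is best known for methylation of the GSTP1 promoter. Only mRNA was measured here, not methylation.

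Total counts ran from 20905806 to 91886163 per tumor, with the lowest in metastatic CR2. Depth went with phenotype in part. The AS tumors had 61237285 to 91886163 counts and primary CR1 had 76887592. The shallowest libraries were all CR: metastatic CR2, primary CR2 (24909389) and metastatic CR1 (40586710). Ribosomal RNA genes, those of the mitochondrial genome included, took from 2.57% of counts in primary CR1 to 24.4% in primary CR2. They took 22.52% in metastatic CR1, 11.16% in metastatic CR2 and 11.59% to 14.72% in AS tumors. The prostate markers gave a mixed picture. The luminal keratin gene Krt8 stood at 2159 to 42160 normalized counts, whereas Epcam, Cdh1, Krt18 and Pbsn, a probasin gene of normal prostate epithelium, each stayed under 40 in every tumor. A normalized count is a gene's count after division by the tumor's effective library size (TMM) and scaling to the mean size of the 8 tumors. Summed leukocyte markers lay between 186.5 and 447.6 CPM (counts scaled to a common total), and such cells belong to the host. In such bulk tissue, fewer cells of a type and less RNA per cell cannot be told apart.

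The promoters of Dnmt1 and Uhrf1 are shown because the 2 genes split the 8 tumors into the same 3 low and 5 high ones, as described further on. Each window runs from 250 bases before to 50 bases after a RefSeq transcription start in GRCm38.p6. Dnmt1 had 3 such windows and Uhrf1 had 2, and the one shown for each gene is the one that held a match to the motifs below, chr9:20952574-20952873 on the minus strand for Dnmt1 and chr17:56304063-56304362 on the plus strand for Uhrf1. Capitals mark matches to the 8-letter motifs TTTCCCGC, TTTCGCGC, TTTGCCGC and TTTGGCGC, which spell the core of E2F binding sites and were searched on both strands.
Dnmt1: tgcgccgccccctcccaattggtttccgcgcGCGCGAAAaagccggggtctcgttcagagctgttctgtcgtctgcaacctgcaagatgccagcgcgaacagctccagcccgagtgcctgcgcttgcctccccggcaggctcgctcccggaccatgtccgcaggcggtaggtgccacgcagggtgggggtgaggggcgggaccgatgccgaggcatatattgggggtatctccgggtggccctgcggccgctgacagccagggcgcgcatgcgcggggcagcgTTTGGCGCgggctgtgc
Uhrf1: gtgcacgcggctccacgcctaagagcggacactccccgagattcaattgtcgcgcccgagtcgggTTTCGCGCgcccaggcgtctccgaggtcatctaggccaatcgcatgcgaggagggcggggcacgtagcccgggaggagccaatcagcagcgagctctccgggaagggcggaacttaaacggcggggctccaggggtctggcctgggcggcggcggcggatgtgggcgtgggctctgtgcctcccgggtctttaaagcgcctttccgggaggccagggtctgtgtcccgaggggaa
The Dnmt1 window held 2 matches, at -219 and 34 bases from the start, the first of them on the opposite strand, and the Uhrf1 window held 1 at -185. Matches were present in 744 of all 32851 promoter windows, or 2.26%. By gene they were present in 704 of 27025 genes, in 2 of the 10 members and in 5 of the 13 genes of the proliferation list that had a window. The windows shown held 33 CpG pairs each, against a median of 7 over all windows. The windows not shown held no match, and 2 and 12 CpG pairs for Dnmt1 and 12 for Uhrf1. These matches describe the letters only, and binding was not measured.

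In the GRCm38 annotation used here (GENCODE M21) all 10 members are protein-coding genes, and reads were counted over whole genes rather than single exons. Dnmt1 spans chr9:20907209-20959888 on the minus strand and Uhrf1 chr17:56303321-56323486 on the plus strand, so both promoter windows above lie inside the annotated span of their gene, downstream of its outermost start. Uhrf2 spans chr19:30030513-30093722 on the plus strand. The de novo genes are Dnmt3a at chr12:3806007-3914443, Dnmt3b at chr2:153649450-153687730 and Dnmt3l at chr10:78041947-78063622, each on the plus strand. Tet1 (chr10:62804570-62908996), Tet2 (chr3:133463679-133545139) and Tet3 (chr6:83362373-83459084) are on the minus strand, and Tdg (chr10:82629828-82650799) is on the plus strand. Exon length ran from 2988 bases for Dnmt3l to 16870 bases for Tet2.

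Levels of different genes were compared per kilobase of exon. Dnmt1 had the highest mean, 6.55 ± 1.96 CPM per kb (SD, n = 8), followed by Uhrf2 at 6.15 ± 0.900 (SD, n = 8). These neighbors overlapped, with Dnmt1 above Uhrf2 in 5 of 8 tumors. Uhrf1 came next at 3.11 ± 1.71 (SD, n = 8) CPM per kb and was below Uhrf2 in all 8 tumors. The order of Dnmt1 and Uhrf2 depends on the length used, which here takes in every annotated exon. For Uhrf2 that was 8590 bases against 3536 in its longest coding transcript, and for Dnmt1 7377 against 5870. Per kilobase of that transcript Uhrf2 would stand above Dnmt1. Dnmt3a, Tet2 and Tet3 lay close together at means of 1.17, 1.12 and 0.925 CPM per kb, and their order changed from tumor to tumor. Tdg averaged 0.387 CPM per kb. Tet1, Dnmt3b and Dnmt3l were the least abundant, at 0.0462, 0.0442 and 0.0119 CPM per kb. Dnmt3a therefore exceeded its paralog Dnmt3b by 11.8-fold to 113.5-fold per kb, and Tet2 and Tet3 were each far above Tet1.

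**Figure D1:**
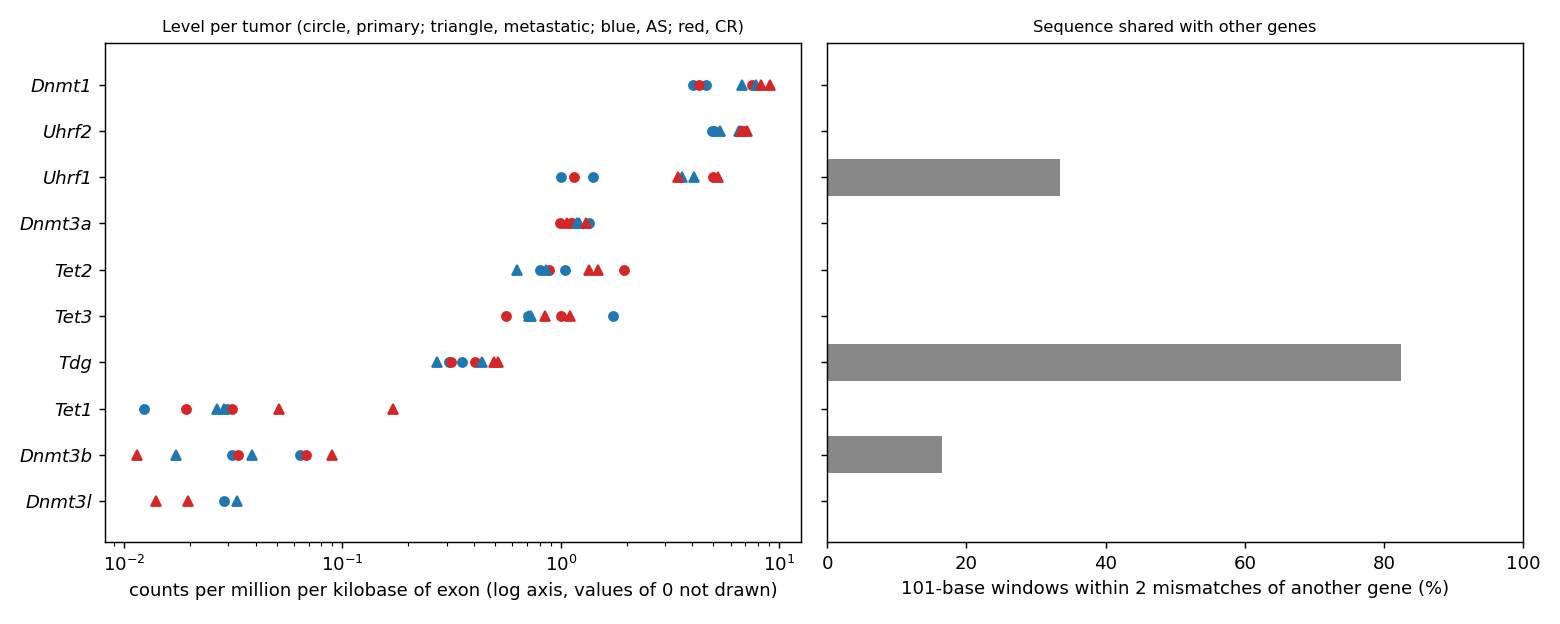
Left, level of each member in CPM per kilobase of exon on a log axis, 1 symbol per tumor, with values of 0 not drawn. Right, percentage of windows of the read length of each member's transcript within 2 mismatches of another gene. Dnmt1, Uhrf2 and Uhrf1 lead the order, and Tdg stands apart with 82.39% of its windows shared.

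Part of this order may rest on which reads could be placed. By the paper's methods only reads with a single location were kept, though the submitters' notes name another mapping tool. Of the read-length windows of Tdg, 82.39% matched another gene within 2 mismatches. Windows stand for single reads, although the reads were paired. By sequence the largest share was with the processed pseudogene Tdg-ps, listed in the files as Gm5806, of which 2322 windows matched Tdg and which had 1 to 20 counts per tumor. Gm9855, another single-exon processed pseudogene, had 916 matching windows (83.73% of its own) and by far the more counts. Gm9855 carried 318 to 2799 counts per tumor against 34 to 240 for Tdg, or 7.74 to 17.5 times as many. The level of Tdg is therefore uncertain. For Uhrf1 33.45% of windows were shared, mostly with the X-linked pseudogene Gm5648, and for Dnmt3b 16.49% were shared with Dnmt3c, a methyltransferase of the male germ line. Both copies had 0 to 3 counts. The other members shared at most 0.03% of windows. Counting by strand was not stated, so reads of members could not be separated from those of genes annotated on the opposite strand at the same place. These are the antisense transcripts Dnmt3aos, Dnmt3bos and Gm42567 for Dnmt3a, Dnmt3b and Tet2, B230319C09Rik for Tet3, Aire for Dnmt3l and Glt8d2 for Tdg.

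In metastatic tumors the maintenance genes Dnmt1 and Uhrf1 had higher mean levels than in primary tumors, while the de novo gene Dnmt3a was nearly level, but no member passed the adjusted threshold. Of the 9 members tested, 0 were called at an adjusted p under 0.05 by edgeR's quasi-likelihood test, and neither was any other gene (0% of 17104). By unadjusted p, 2 members passed 0.05, Dnmt1 and Tet1, both higher in metastases, where 1.56% of all genes were higher at that level. DESeq2 and limma voom also called 0 members. At an unadjusted p under 0.05 DESeq2 had 2, Dnmt1 and Tet1, where 611 of 17104 genes passed in either direction. limma voom had 2 as well, Dnmt1 and Uhrf1, where 440 genes passed, and its unadjusted p for Tet1 was 0.182. The members' median log2 fold change was 0.12, against -0.03 over all genes tested.

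Dnmt1, the maintenance methyltransferase, was at 2029 and 1769 normalized counts in primary AS1 and AS2, 3294 and 1884 in primary CR1 and CR2, 3443 and 2971 in metastatic AS1 and AS2, and 3608 and 3960 in metastatic CR1 and CR2. Primary CR1 stood with the metastases and the other 3 primary tumors lay below all 4 of them, so the groups overlapped through a single tumor. The mean was 2244 ± 708 (SD, n = 4) in primary and 3495 ± 411 (SD, n = 4) in metastatic tumors. Metastases differed by a log2 fold change of 0.64 with an SE of 0.23 and a 95% interval of 0.13 to 1.15 before adjustment, and edgeR gave an unadjusted p of 0.0188 and an adjusted p of 0.997. The metastasis was higher in 15 of 16 pairs of a primary tumor and a metastasis, and the exact two-sided permutation test gave p = 0.0571, where 0.0286 is the smallest p that 4 against 4 can give. Full separation of the groups, with the metastases higher, was seen for 0.842% of genes and for 0 of the 9 members tested.

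Uhrf1, the partner that recruits Dnmt1, showed the same split of the tumors, 3 low and 5 high, with a larger ratio between them. It was at 355.9 and 252.9 normalized counts in primary AS1 and AS2, 1256 and 291 in primary CR1 and CR2, 902.7 and 1031 in metastatic AS1 and AS2, and 872.6 and 1319 in metastatic CR1 and CR2. Again primary CR1 had a level found otherwise only in metastases, and the other 3 primary tumors were below every metastasis. For Uhrf1 the log2 fold change was 0.93 with an SE of 0.49, and edgeR gave an adjusted p of 0.997 and an unadjusted p of 0.0904. Means were 539 ± 480 (SD, n = 4) in primary and 1031 ± 204 (SD, n = 4) in metastatic tumors. The exact permutation p was 0.114.

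For both genes the size of the difference depended on primary CR1. Without it the log2 fold change was 0.88 for Dnmt1 and 1.78 for Uhrf1, and edgeR still called neither (adjusted p = 0.238 for both). DESeq2 without primary CR1, a fit chosen after the data were seen, called both, Uhrf1 at 1.79 with an adjusted p of 1.83e-08 and Dnmt1 at 0.89 with an adjusted p of 0.000672. That fit called 1.03% of 17393 genes, and the other members were not among them. In the AS tumors alone, which do not include that tumor, the log2 fold change was 1.69 for Uhrf1 and 0.77 for Dnmt1, and in the CR tumors alone 0.54 and 0.58. edgeR called neither gene in these comparisons of 2 against 2. The test of whether the difference by tumor type itself differed between AS and CR gave an interaction of -1.22 for Uhrf1 with an SE of 0.82 and an adjusted p of 0.964 by edgeR.

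**Figure D2:**
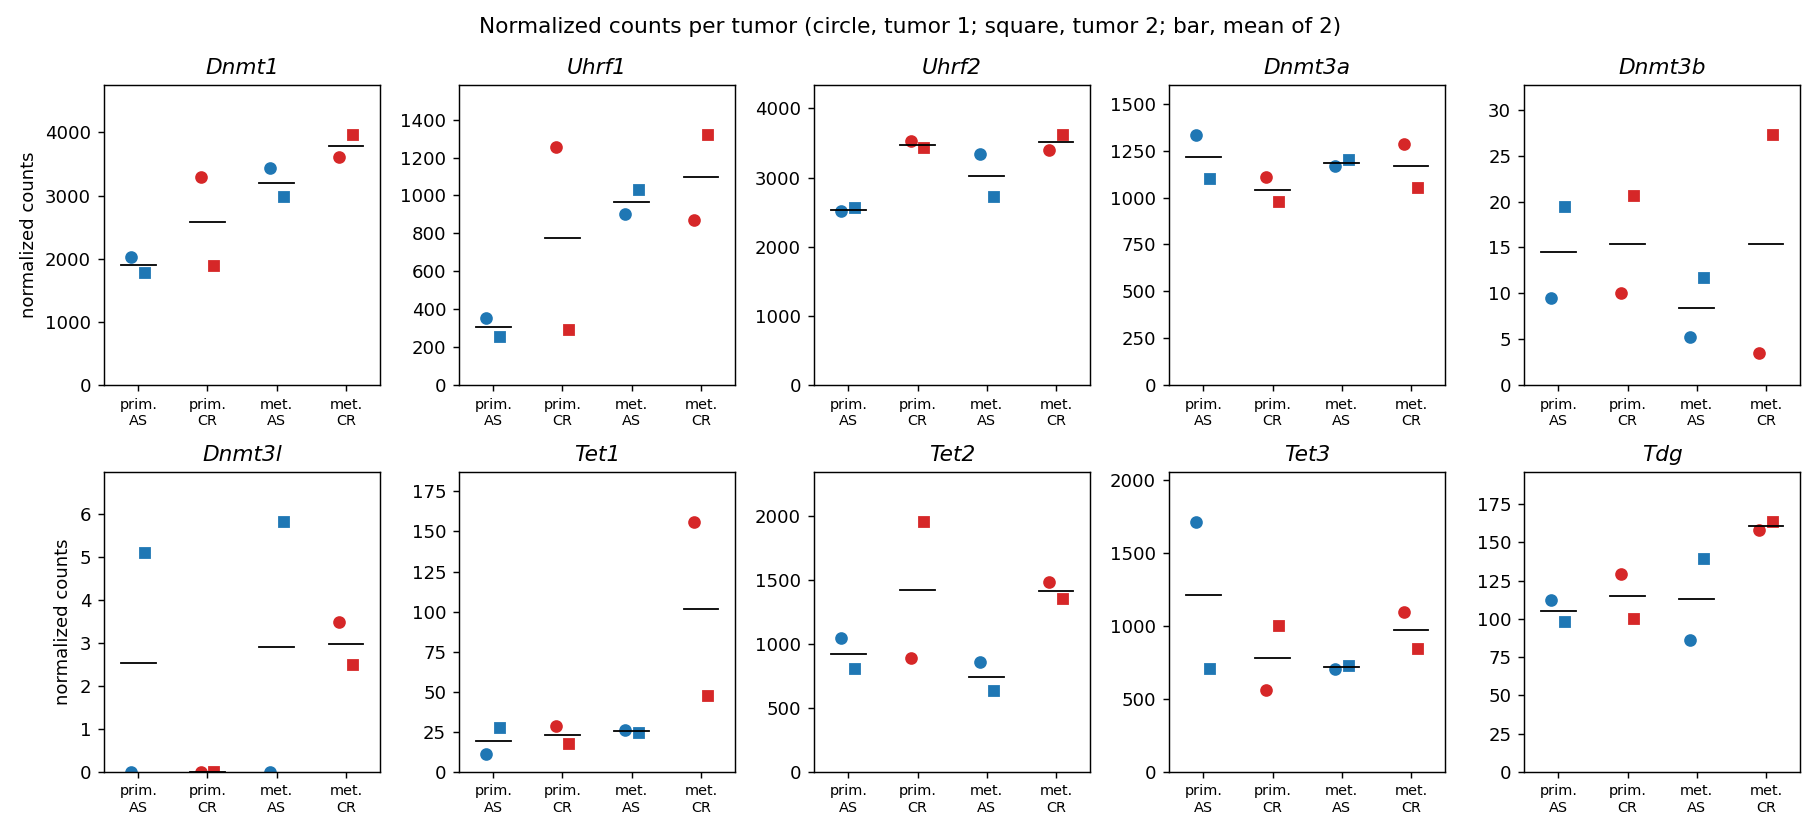
Normalized counts of the 10 members in each tumor on linear axes that start at 0, with circles for tumor 1, squares for tumor 2, blue for AS, red for CR and a bar at the mean of 2 tumors. For Dnmt1 and Uhrf1 primary CR1 (3294 and 1256) sits among the metastases, and for Uhrf2 all 4 CR tumors lie above all 4 AS tumors.

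Dnmt1 and Uhrf1 varied together with several genes of dividing cells. Over the 8 tumors the Pearson r of log2(CPM + 1) was 0.957 between Dnmt1 and Uhrf1. With Mki67, which encodes the proliferation antigen Ki-67, r was 0.951 for Dnmt1 and 0.906 for Uhrf1, and with Top2a, the topoisomerase that untangles replicated chromosomes, 0.936 and 0.965. With Pcna, the sliding clamp of DNA replication, r was lower, 0.661 and 0.736. Top2a was at 1520 to 2704 normalized counts in primary AS1, AS2 and CR2, at 8186 in primary CR1 and at 4861 to 8326 in metastases. These are descriptions over the same 8 libraries, each gene sharing their depth and normalization, and are not tests. Dnmt3a did not follow the pattern, with r of 0.126 with Mki67 and 0.185 with Top2a.

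**Figure D3:**
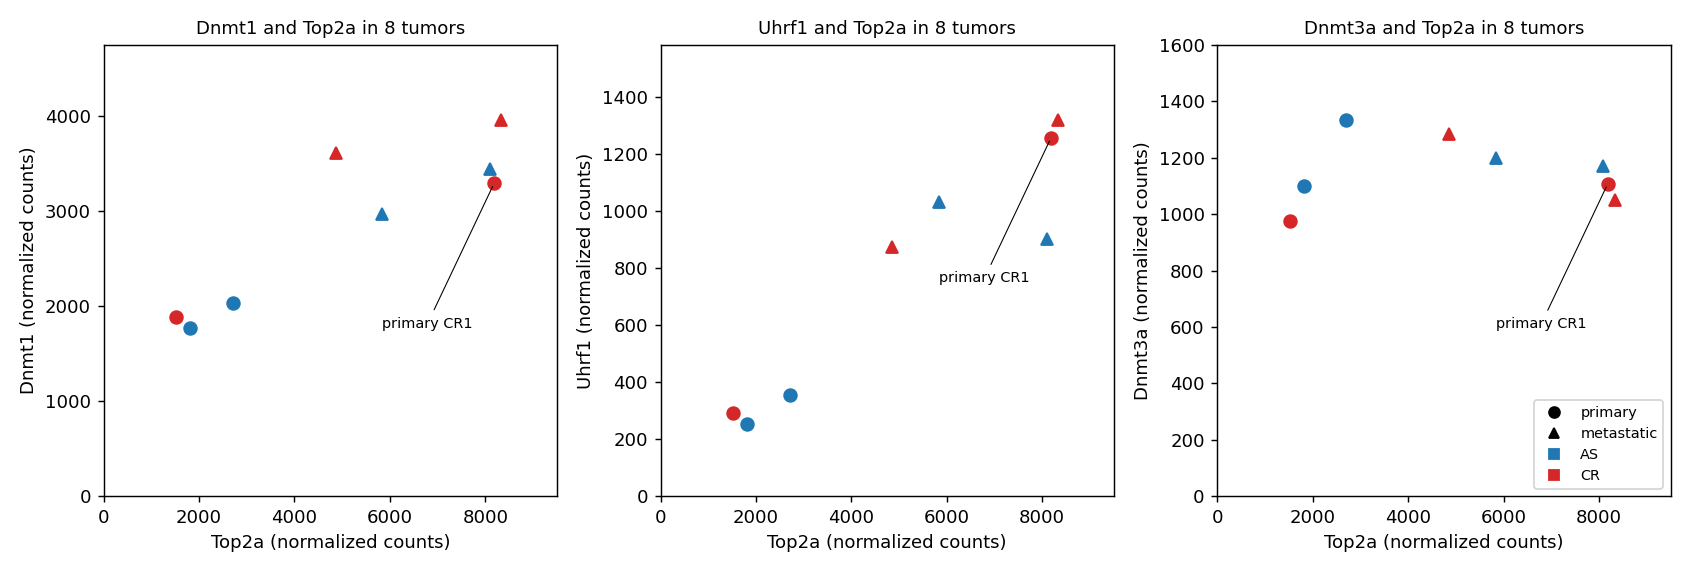
Normalized counts of Dnmt1, Uhrf1 and Dnmt3a (vertical axes) against those of Top2a (horizontal axis) in 8 tumors, with circles for primary, triangles for metastatic, blue for AS and red for CR. Dnmt1 and Uhrf1 are high where Top2a is high, primary CR1 included (Top2a 8186), and Dnmt3a stays between 975.9 and 1334 throughout.

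Among 13665 protein-coding genes, the 3 with the highest r to Dnmt1 were Prim2, a primase subunit (0.984), Slfn9 (0.981) and Ccnf, which encodes cyclin F (0.979). For Uhrf1 they were Mcm3, a subunit of the replicative helicase (0.988), Ercc6l (0.988) and Chaf1a, a subunit of the chromatin assembly factor that acts behind the replication fork (0.985). With 8 points and this many genes searched, values of this size describe these tumors only. The summed proliferation list, 16 genes, was at 181 to 238 CPM in primary AS1, AS2 and CR2, 631 in primary CR1 and 414 to 652 in metastases. All 16 genes had a log2 fold change above 0 in metastases, with a median of 0.61, and edgeR called 0 of them. Mki67 had the largest, 1.29 with an SE of 0.32 and an edgeR adjusted p of 0.997. Whether the share of dividing cells accounts for the levels of Dnmt1 and Uhrf1 was not tested.

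Uhrf2, the paralog of Uhrf1, was the member whose TMM-normalized counts separated the phenotypes. It was at 2513 and 2560 normalized counts in primary AS1 and AS2, 3526 and 3422 in primary CR1 and CR2, 3337 and 2718 in metastatic AS1 and AS2, and 3405 and 3617 in metastatic CR1 and CR2. All 4 CR tumors were above all 4 AS tumors, with means of 3493 ± 98.9 (SD, n = 4) and 2782 ± 380 (SD, n = 4). Such separation was common, since 9.07% of all genes were higher in every CR tumor. The separation of Uhrf2 also rested on the TMM factors, 0.811 in primary CR2 and 0.843 in metastatic CR1. With library size alone the groups overlapped, and edgeR gave a log2 fold change of 0.23 and an unadjusted p of 0.26. For Uhrf2 the log2 fold change was 0.34 with an SE of 0.13 and a 95% interval of 0.03 to 0.64, and edgeR gave an adjusted p of 0.138. The exact permutation p was 0.0286, the smallest that the design allows. Between metastatic and primary tumors Uhrf2 differed by 0.12 on the log2 scale, with an interval of -0.29 to 0.54.

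By phenotype, then, the members with the smallest p-values were Tet2 and Uhrf2, both higher in CR tumors, and 0 of the 9 tested passed the adjusted threshold. The comparison itself had many calls by edgeR, with tumor type as a covariate: 2081 of 17104 genes (12.2%), 6.16% higher and 6.01% lower in CR. The shallowest libraries were CR tumors, and the part of library depth and ribosomal RNA content in the calls by phenotype was not tested. At an unadjusted p under 0.05 there were 2 members higher of 9, against 14.3% of all genes. limma voom also called 0 members. It had 3 of the 9 at an unadjusted p under 0.05, where 4925 of 17104 genes passed in either direction. DESeq2 called 1 member, Tet2, where it called 20.7% of all genes. The members' median log2 fold change was 0.35 against -0.01 over all genes, and 7 of the 9 were above 0. Dividing by library size alone moved the median of all genes to -0.12, and the direction of each member stayed as it was.

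Tet2, which oxidizes 5-methylcytosine and is often mutated in myeloid malignancy, was at 1041 and 805.3 normalized counts in primary AS1 and AS2, 887.2 and 1952 in primary CR1 and CR2, 853.1 and 630.7 in metastatic AS1 and AS2, and 1478 and 1351 in metastatic CR1 and CR2. The CR tumors were higher in 15 of 16 pairs, and the exception was primary CR1 against primary AS1. Means were 833 ± 169 (SD, n = 4) in AS and 1417 ± 438 (SD, n = 4) in CR tumors. The log2 fold change was 0.77 with an SE of 0.25 and a 95% interval of 0.20 to 1.35, with an unadjusted p of 0.0140 and an adjusted p of 0.0806 by edgeR. Tet2 was thus not called, and primary CR1 bore on this too. Without that tumor edgeR called Tet2 at 0.99 with an adjusted p of 0.00572, in a fit that called 23.8% of genes. DESeq2 on all 8 tumors gave 0.80 with an adjusted p of 0.0330. The log2 fold change was 0.62 in primary and 0.94 in metastatic tumors alone, called in neither set.

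Dnmt1 and Uhrf1 were not called by phenotype either. The log2 fold change in CR tumors was 0.35 for Dnmt1 (SE 0.19, edgeR adjusted p = 0.262) and 0.77 for Uhrf1 (SE 0.44, edgeR adjusted p = 0.286). Without primary CR1 these values were 0.14 for Dnmt1 and 0.08 for Uhrf1.

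**Figure D4:**
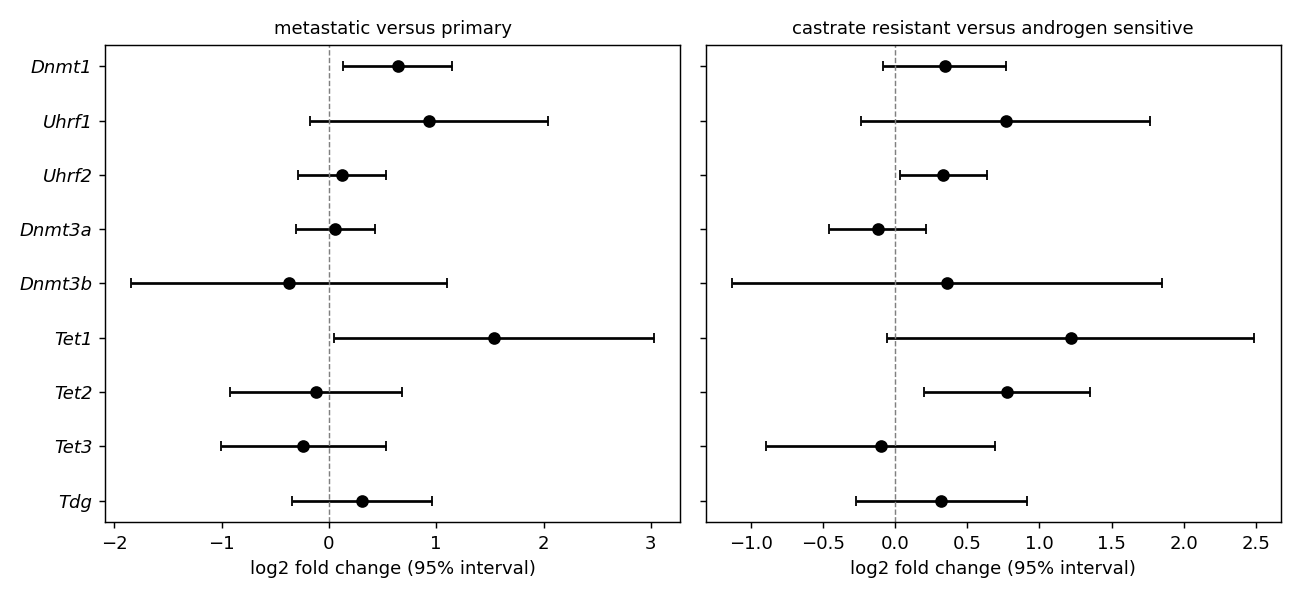
Log2 fold changes of the 9 tested members with 95% intervals that are not adjusted for the number of genes, metastatic over primary tumors on the left and CR over AS tumors on the right. The intervals of Dnmt1 and Tet1 lie above 0 on the left (0.13 to 1.15 and 0.05 to 3.03), and those of Tet2 and Uhrf2 on the right, and no member passed the adjusted threshold.

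The de novo methyltransferases differed widely in level, and no difference between groups was called for those tested. Dnmt3a was at 1334 and 1098 normalized counts in primary AS1 and AS2, 1108 and 975.9 in primary CR1 and CR2, 1170 and 1198 in metastatic AS1 and AS2, and 1284 and 1051 in metastatic CR1 and CR2. It was among the steadiest members, and the groups overlapped in both comparisons. Its log2 fold change was 0.06 in metastases, with an interval of -0.31 to 0.43, and -0.12 in CR tumors, with an interval of -0.46 to 0.22. A change of the size seen for Uhrf2 in CR tumors, 0.34, lies inside the interval for metastases only as a rise. Inside the interval for CR tumors it lies only as a fall. The genes most like Dnmt3a over the 8 tumors were Zfp668 (r = 0.968), Ctdspl (0.964) and Cgnl1 (0.940).

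Dnmt3b, the other de novo enzyme, had few counts: 10, 23, 14 and 7 in primary AS1, AS2, CR1 and CR2, and 7, 20, 2 and 11 in metastatic AS1, AS2, CR1 and CR2. At this depth a difference between groups was not detectable unless large, since the interval of its log2 fold change ran from -1.84 to 1.10 in metastases and from -1.13 to 1.85 in CR tumors. Il1a (r = 0.973), Col23a1 (0.956) and Cd300ld (0.952) were the genes most like it, at counts where such values carry much counting noise. Dnmt3l, the germline cofactor, did not pass the low-count filter and was not tested. Its raw counts were 6 in primary AS2, 10 in metastatic AS2, 2 in metastatic CR1, 1 in metastatic CR2 and 0 in the other 4 tumors, where a count of 0 allows up to 3 counts, or 2.16 to 8.82 normalized counts for counting error only.

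Tet1, the Tet enzyme of embryonic stem cells and germ cells, was low throughout and highest in metastatic CR1. Its normalized counts were 11.36 and 27.07 in primary AS1 and AS2, 28.76 and 17.64 in primary CR1 and CR2, 26.31 and 24.42 in metastatic AS1 and AS2, and 156.1 and 47.11 in metastatic CR1 and CR2. The CR metastases were the highest 2 tumors. In metastases the log2 fold change was 1.54 with an SE of 0.66, an unadjusted p of 0.0439 and an adjusted p of 0.997 by edgeR, and it dropped to 0.59 without metastatic CR1. In CR tumors it was 1.22 with an SE of 0.56 and an edgeR adjusted p of 0.191, and 0.56 without metastatic CR1. The genes most like Tet1 were Adam11 (r = 0.972), Tsga14 (0.968) and Tubb4a (0.959), and the r with Mki67 was 0.375.

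Tet3 was at 1713 and 702.1 normalized counts in primary AS1 and AS2, 558.6 and 996.5 in primary CR1 and CR2, 706.6 and 723.8 in metastatic AS1 and AS2, and 1093 and 843 in metastatic CR1 and CR2. Primary AS1 was the highest and the groups overlapped. For Tet3 it was -0.24 on the log2 scale in metastases (SE 0.34) and -0.10 in CR tumors (SE 0.35), and both signs turned when primary AS1 was left out. Tet3 is the Tet enzyme of the zygote and of many differentiated tissues. For the Tet genes and all other members the interaction of tumor type and phenotype was not called, with 0 of 9 members and 0% of 18889 genes by edgeR, 0 members at an unadjusted p under 0.05 against 2.74% of genes, and 0 members by DESeq2 and limma voom. The members' median interaction was 0.30, against -0.05 over all genes.

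Tdg, which excises the oxidized bases that the Tet enzymes make, was at 112.6 and 98.13 normalized counts in primary AS1 and AS2, 129.4 and 99.95 in primary CR1 and CR2, 86.44 and 139.5 in metastatic AS1 and AS2, and 157.9 and 163.6 in metastatic CR1 and CR2. The CR metastases were highest and the groups overlapped in both comparisons. The log2 fold change was 0.31 in metastases (SE 0.29, edgeR adjusted p = 0.997) and 0.32 in CR tumors (SE 0.26, edgeR adjusted p = 0.450). Gm9855, the copy described above, had log2 fold changes of 0.11 and -0.08 and was not called. Reads of the shared sequence could belong to either, so these values describe only the reads that were placed on Tdg.

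The wider pathway was read from lists of genes around the 10 members, and in metastatic against primary tumors edgeR called 0 genes of each. By phenotype most lists moved little, with a few genes called. Of 8 readers of methylated CpG, 1 was lower in CR tumors and 0 were higher, a share near the 12.2% of all genes called in either direction. That gene was Mbd1, which binds methylated CpG and brings in repressive histone methylation. Mbd1 was at 1161 and 1229 normalized counts in primary AS1 and AS2, 668.7 and 702.6 in primary CR1 and CR2, 1136 and 1210 in metastatic AS1 and AS2, and 650.5 and 520.7 in metastatic CR1 and CR2. Every CR tumor was well below every AS tumor, and 9.82% of all genes tested were likewise lower in every CR tumor. Mbd1 fell by 0.90 on the log2 scale with an SE of 0.15 and an edgeR adjusted p of 0.00978. The call held in 17 of 19 alternative analyses, and the exceptions were primary and metastatic tumors taken alone, 2 against 2, where the values were -0.80 and -0.99.

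The methyl donor pathway had calls in both directions, 2 higher and 2 lower in CR tumors of 15 tested, where 6.16% of all genes were higher and 6.01% lower. Ahcy, which clears the methyltransferase inhibitor S-adenosylhomocysteine, rose by 1.28 on the log2 scale (SE 0.27, edgeR adjusted p = 0.0230). It was at 123.8 to 182.7 normalized counts in AS tumors and at 223.6, 420.4, 322.7 and 404.1 in CR tumors, with no overlap. The same held for 9.07% of all genes tested, higher in every CR tumor. Mtap, of the methionine salvage route, rose by 0.54 (SE 0.15, edgeR adjusted p = 0.0480). Gnmt, which uses up S-adenosylmethionine by methylating glycine, fell by 1.12 (SE 0.30, edgeR adjusted p = 0.0452), and Mtr, the methionine synthase, fell by 0.89 (SE 0.22, edgeR adjusted p = 0.0329). All 4 kept their direction in 19 alternatives, but the calls were less firm, holding in 12 for Ahcy, 8 for Mtap, 10 for Gnmt and 9 for Mtr.

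Of 19 partners and regulators of the methyltransferases, 1 was called, higher in CR tumors, where 6.16% of all genes were called higher. Cdca7l, a relative of the Cdca7 protein that works with the remodeler Hells, rose by 0.83 on the log2 scale (SE 0.17, edgeR adjusted p = 0.0207) and was called in 11 of 19 alternatives. Cdca7 itself had a log2 fold change of 1.09 (SE 0.32, edgeR adjusted p = 0.0563) and was not called. Cofactors of the Tet enzymes and genes of base excision repair had 0 calls of 18, and the largest difference was that of Gadd45g at -0.97 (SE 0.29, edgeR adjusted p = 0.0639). Germline genes whose promoters are known to be methylated in somatic tissue were mostly too low to test, with 7 of 18 past the filter. Of these 7, 1 was called, against 12.2% of all genes, and it was Brdt, a testis bromodomain gene. It was at 35.02 to 88.36 normalized counts in AS tumors and at 158.7 to 249.8 in CR tumors, and rose by 1.56 on the log2 scale (SE 0.32, edgeR adjusted p = 0.0197), a call held in 14 of 19 alternatives. The proliferation list had 0 calls of 16 by phenotype, with a median log2 fold change of 0.53. Summed leukocyte markers were at 294.9 to 447.6 CPM in AS tumors and at 186.5 to 402 in CR tumors, and their part in these differences was not tested. Among the marker lists, Krt8 was called higher in CR tumors at 1.85 on the log2 scale (SE 0.50, edgeR adjusted p = 0.0442). It was the only gene called of 6 epithelial and prostate markers tested, of which 4 were above 0. The keratin gene Krt18, at low counts, went the other way at -0.76 (SE 0.40, edgeR adjusted p = 0.238). Ttr, a host organ marker made by the liver, was called lower at -1.31 (SE 0.36, edgeR adjusted p = 0.0498). Ttr was at 194.7 to 1491 normalized counts in AS tumors and at 131.8 to 417 in CR tumors, so its groups overlapped. Alb, another liver marker of that list, went the other way at 1.38 (SE 1.04, edgeR adjusted p = 0.411) and was not called.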

How the data were processed

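RNA-seq counts of 8 tumors were used. Libraries of small RNA were left out. The authors extracted total RNA, depleted ribosomal RNA and sequenced stranded libraries as paired reads of 101 bases. The deposited values are raw counts per gene, with no normalization. For the mapping to GRCm38 (mm10), the paper names Bowtie with single-location reads and up to 2 mismatches, while the submitters' processing notes name CASAVA 1.8.2 and TopHat2 2.0. The counting tool, its strand setting and the annotation release are not given in the sources used here. Loss of reads with several locations lowers genes that have near-identical copies.

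The main fits used edgeR 4.0.16 under R 4.3.3: filterByExpr, TMM factors and the quasi-likelihood test over all genes kept (17104, or 18889 for the interaction), with Benjamini-Hochberg adjustment at 0.05. Tumor type was the only term for metastatic against primary, and a covariate for phenotype. Groups came from the tumor type and phenotype labels. Single genes were also compared by exact two-sided permutation. Alternatives were DESeq2 1.42.0, limma 3.58.1, other factors and filters, subsets, each possible pairing as a block, and each tumor left out. The fits were tested on simulated data. Loci and shared windows came from GENCODE M21, in which 36343 identifiers were found, and promoters from RefSeq tables. Figures were drawn with matplotlib.

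The members and lists were chosen with earlier results of these data known. Named were all 10 members, the called genes and those with the largest difference in the other lists, the 3 genes most correlated with each of Dnmt1, Dnmt3a, Dnmt3b, Uhrf1 and Tet1, and Mki67 and Top2a. Some marker genes are not reported here. Total counts of 20905806 to 91886163 keep the counting error small for all but Dnmt3b, Dnmt3l, Tet1 and Tdg. The number of tumors limits the rest.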

Additional observations from a re-analysis of the deposited data

Results flagged for a closer look

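In 36 groups of 4 tumors examined for 1 value far from the other 3, 4 values stood apart by Dixon's ratio of gap to range. Chance flags about 1 in 20 groups of independent, normally distributed values. These groups share tumors and genes that vary together, so the 4 flags cannot be set against that rate. The Dnmt1 value lay at the cutoff of 0.829. Among primary tumors, CR1 had 3294 normalized counts of Dnmt1 against 1769 to 2029 in the other 3, and 1256 of Uhrf1 against 252.9 to 355.9. Among AS tumors, primary AS1 had 1713 normalized counts of Tet3 against 702.1 to 723.8, and 11.36 of Tet1 against 24.42 to 27.07. The Tet1 value rests on 12 counts.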

How the results depend on the processing

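The members called numbered 0 in each comparison and changed in 3 fits: to 2 (Dnmt1 and Uhrf1) for metastatic against primary tumors under DESeq2 without primary CR1, a fit added after the data were seen, and to 1 (Tet2) for CR against AS tumors under DESeq2 and without primary CR1, with a range of 0 to 1 when each tumor was left out. In every other fit for these comparisons and in all fits of the interaction the number was 0. The labels call the metastases matched without naming the primary tumor of each, so each of the 4 possible pairings within phenotypes was fitted as a block, and 0 members were called in each.

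Of single log2 fold changes, 205 of 213 kept their direction and call for tumor type, 162 of 169 for phenotype and 136 of 142 for the interaction. The reversals all concerned values not called. For tumor type, Dnmt3a was -0.02 in AS tumors alone, Tet2 0.03 and Tet3 0.35 in CR tumors alone, and with a tumor left out Tet2 ranged from -0.29 to 0.27 and Tet3 from -0.44 to 0.16. For phenotype, Dnmt3b was -0.021 in primary tumors alone and Tet3 0.45 in metastatic tumors alone, and with a tumor left out Dnmt3b ranged from -0.39 to 0.72 and Tet3 from -0.27 to 0.31. The interaction ranged from -0.61 to 0.22 for Dnmt1, -0.063 to 0.32 for Dnmt3a, -1.27 to 1.57 for Dnmt3b, -1.93 to 0.21 for Uhrf1 and -0.17 to 0.93 for Tet2. The cause was not tested.

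Over all genes, calls by phenotype were 2081, and 3544 by DESeq2, 1271 by library size alone, 481 to 4133 with a tumor left out, 4 in primary and 974 in metastatic tumors alone. Interaction calls were 0, 2 by DESeq2, 217 without the low-count filter and 82 without primary CR2. DESeq2 without primary CR1 called 180 genes by tumor type. Groups of 2 to 4 tumors, the depth of Dnmt3b, Dnmt3l and Tet1, and the shared sequence of Tdg limit these comparisons.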

Other observations

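Tex101, a testis gene on the germline list, was at 1337 normalized counts in primary CR1 and at 0 to 124.9 in the other 7 tumors. This is the same primary tumor in which Dnmt1 and Uhrf1 were at metastatic levels, and a link between them was not tested. Of the other germline genes tested, Dnd1 and Asz1 were also highest in primary CR1, while Brdt, Sycp1, Sycp3 and Tdrd1 were highest in other tumors. Tex101 was not called in either comparison (edgeR adjusted p = 0.997 by tumor type and 0.398 by phenotype).

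Summed endothelial markers were at 41.81 to 63.53 CPM in primary and 53.77 to 87.72 CPM in metastatic tumors, with 0 of 5 genes called. Of the 16 proliferation genes, 0 had an interaction of tumor type and phenotype above 0, with a median of -0.96, and 0 were called by edgeR. Primary CR1 had the highest proliferation sum among primary tumors, 631 CPM. Per kilobase of exon, Uhrf2 exceeded Uhrf1 by 3.50-fold to 5.83-fold in primary AS1, AS2 and CR2 and by 1.31-fold to 1.94-fold in primary CR1 and the metastases.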
